A study of Mus musculus with 6 samples.

Results

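The genes described here are 10 chemokines of EMT6 cells, a mouse mammary carcinoma line: Ccl2, Ccl7, Cxcl1, Cxcl2, Cxcl5, Ccl5, Cxcl10, Ccl20, Cxcl12 and Cx3cl1. They were chosen by name, with earlier results of these data known, as rows of the count table whose Ensembl identifier maps to these symbols. All 10 were found among 53465 gene identifiers. EMT6 cells were grown without immune cells for more than 4 weeks in medium that held either an antibody against PD-L1 at 0.5 μg/ml (PTR-VITRO, titled anti-PD-L1 resistant, 3 samples) or an isotype control antibody at the same dose (P-VITRO, titled parental, 3 samples). PD-L1 is a surface protein by which tumor cells restrain T cells. PTR-VITRO cells were exposed to the antibody in culture only and were not selected in animals. The labels do not say whether the 3 samples of a group were separate cultures, and the study treats replicates as technical where it does not say otherwise. The p-values, SDs and n given here therefore describe the spread between these libraries and not between independently treated cultures. The question addressed was whether the antibody alone changes the genes tumor cells use to attract leukocytes.

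Chemokines are small secreted proteins that guide leukocytes along a gradient toward their source. Each binds a few receptors with a G protein partner, and the receptor decides which cell responds. Cxcl1, Cxcl2 and Cxcl5 bind CXCR2 and draw neutrophils, whereas Ccl2 and Ccl7 bind CCR2 and draw monocytes. These 5 genes were grouped as myeloid-attracting. Cxcl10, an interferon-induced ligand of CXCR3, and Ccl5, which draws effector T cells, were grouped as T cell-attracting, although Ccl5 also acts on monocytes. Ccl20 binds CCR6 on dendritic cells and some lymphocytes, Cxcl12 binds CXCR4, and Cx3cl1 binds CX3CR1 on monocytes, natural killer cells and T cells. These 3 were grouped as mixed.

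Library totals ran from 17757341 to 32426739 estimated counts. The common biological coefficient of variation was 5%. Levels are given as CPM, the usual count per library size, with library sizes scaled by the upper quartile. The cells carried the keratin Krt8 (1031 to 1128 CPM) and the mesenchymal filament gene Vim (1840 to 1972 CPM). The keratin Krt18 was at 480 to 506 CPM in P-VITRO and 523 to 568 CPM in PTR-VITRO. Epcam was low, at 1.24 to 1.8 CPM in P-VITRO and 2.15 to 2.41 CPM in PTR-VITRO. Krt7 was at 0.257 to 0.842 CPM over all libraries, and the epithelial cadherin Cdh1 was at or near 0. Krt18 and Epcam were higher in every PTR-VITRO library, but neither difference passed the adjusted test described below. Of 13 immune cell markers, Ptprc, Cd3d, Cd8a and Adgre1 had a count of 0 in every library. Only Cd68, a lysosomal protein gene, and Lyz2 had enough counts to be tested. The 13 markers summed to 12.7 to 14 CPM in P-VITRO against 11.9 to 13.6 CPM in PTR-VITRO, and without Cd68 they summed to 0.744 to 0.985 CPM and 0.561 to 0.709 CPM. Cd68 itself was at 11.3 to 13.2 CPM over the 6 libraries, and its part in the chemokine levels was not tested. In bulk RNA, fewer cells that express a gene and less RNA per cell cannot be told apart.

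Of the 10 chemokines, 9 were detected in every library and passed the filter on low counts. With the quasi-likelihood test of edgeR and Benjamini-Hochberg adjustment over all 14217 tested genes, 1 of the 9, Cxcl5, had an adjusted p below 0.05, and it was lower in PTR-VITRO. Over all tested genes, 0.246% were called in either direction and 0.148% were called lower. Values of the 3 PTR-VITRO samples lay entirely outside those of the 3 P-VITRO samples for 6 of the 9 genes, with 5 lower (Cxcl1, Cxcl2, Cxcl5, Ccl20 and Cx3cl1) and 1 higher (Cxcl10). Such a lack of overlap was seen in 17.6% of all tested genes, 9.33% lower and 8.27% higher. Unadjusted p was below 0.05 for 5 of the 9 genes and for 11.4% of all tested genes. The median log2 fold change was -0.14 over the 9 genes and -0.004 over all tested genes. Because the 10 genes were chosen with earlier results of these data known, these shares describe the list and do not test it for enrichment.

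**Figure D1:**
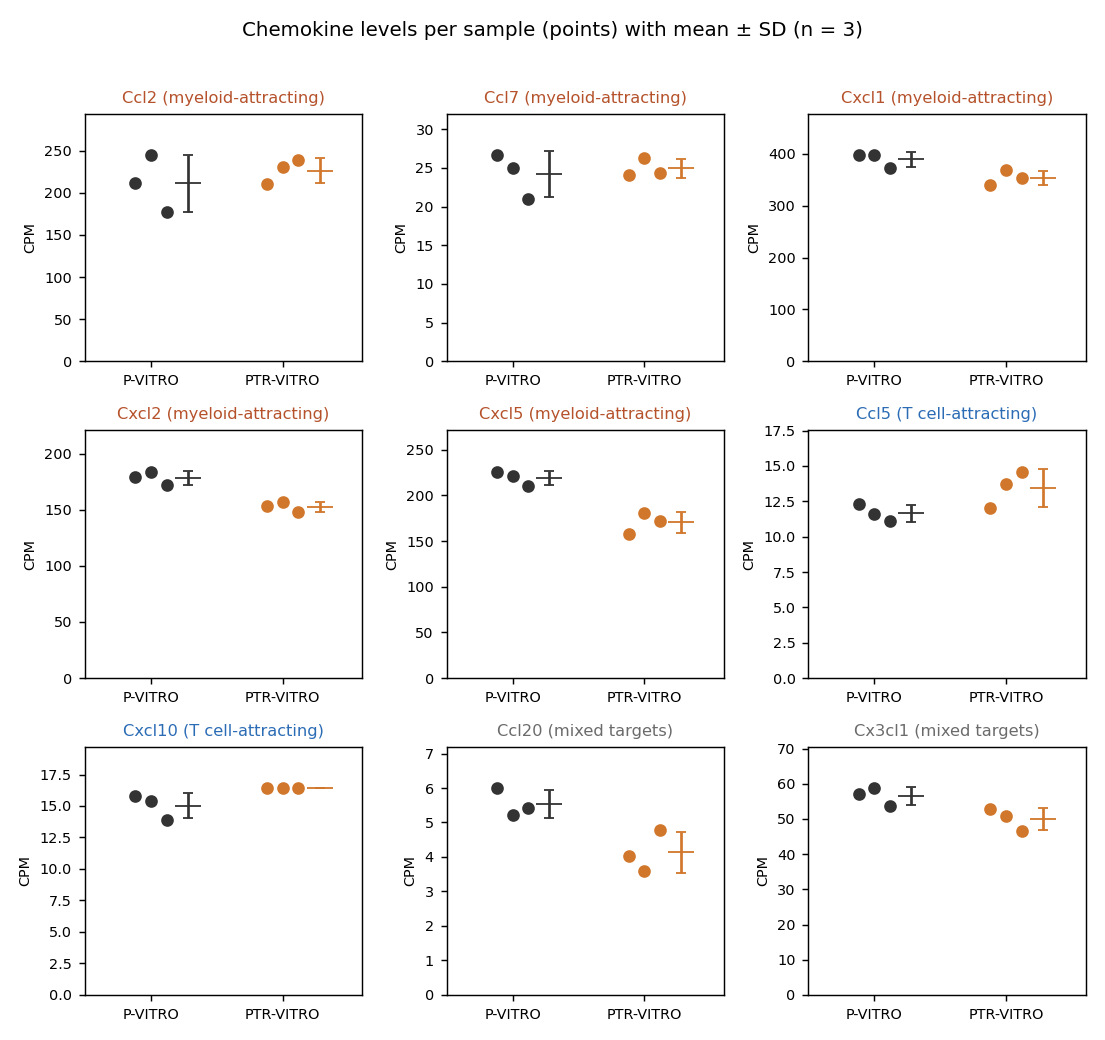
Level of each of the 9 detected chemokines in CPM (vertical axes from 0) in each P-VITRO (black) and PTR-VITRO (orange) sample, with the mean and SD of 3 samples beside the points. The groups do not overlap for Cxcl1, Cxcl2, Cxcl5, Ccl20 and Cx3cl1, which are lower in PTR-VITRO, and for Cxcl10, which is higher.

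The neutrophil-attracting genes of the list lie near Cxcl3 on chromosome 5 (GRCm38, plus strand). Cxcl5 is at chr5:90759360-90761624, Cxcl3 at chr5:90786103-90789600, Cxcl1 at chr5:90891241-90893115 and Cxcl2 at chr5:90903871-90905938. Ppbp, another chemokine ligand gene outside the 10, lies between Cxcl5 and Cxcl3 at chr5:90768518-90770063. Cxcl3 is a further CXCR2 ligand, outside the 10 genes, and lies 24.5 kb from Cxcl5. The promoters of CXCR2 ligands are known targets of NF-κB, the transcription factor that inflammatory signals release into the nucleus. To show that sequence, the promoters of Cxcl1, Cxcl2 and Cxcl3 are given from 250 bases before to 50 bases after the start (RefSeq, GRCm38.p6, plus strand, 5′ to 3′), at chr5:90890995-90891294, chr5:90903649-90903948 and chr5:90785851-90786150. Capitals mark matches to a short form of the NF-κB site, GGG followed after any 3 bases by TTCC, on either strand, with overlapping matches merged.
Cxcl1: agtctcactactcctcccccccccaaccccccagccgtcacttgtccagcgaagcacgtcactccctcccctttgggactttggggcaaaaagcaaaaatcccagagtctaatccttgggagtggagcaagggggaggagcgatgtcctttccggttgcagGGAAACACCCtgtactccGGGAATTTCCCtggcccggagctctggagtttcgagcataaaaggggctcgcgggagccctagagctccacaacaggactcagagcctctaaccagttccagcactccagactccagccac
Cxcl2: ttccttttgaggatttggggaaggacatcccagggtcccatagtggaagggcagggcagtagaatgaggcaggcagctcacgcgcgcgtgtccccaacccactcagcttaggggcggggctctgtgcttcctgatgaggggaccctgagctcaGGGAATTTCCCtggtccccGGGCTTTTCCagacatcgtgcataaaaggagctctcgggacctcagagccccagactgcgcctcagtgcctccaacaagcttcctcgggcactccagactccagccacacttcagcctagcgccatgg
Cxcl3: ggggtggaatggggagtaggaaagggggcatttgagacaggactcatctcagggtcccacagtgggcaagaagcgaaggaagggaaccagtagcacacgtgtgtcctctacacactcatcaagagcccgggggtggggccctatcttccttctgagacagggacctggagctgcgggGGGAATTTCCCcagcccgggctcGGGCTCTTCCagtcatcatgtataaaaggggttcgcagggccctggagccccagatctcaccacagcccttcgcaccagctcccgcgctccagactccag
All 3 windows held 3 matches, of which a pair overlapped on opposite strands in the run GGGAATTTCCC. That run began 71 bases before the start in Cxcl1, 97 in Cxcl2 and 73 in Cxcl3. Among 32851 mouse promoter windows of the same length, 5.56% held at least 1 match. A match describes letters only and is not a measured binding site. Promoter windows of Cxcl5, Ccl2, Ccl7 and Ccl5 were not analysed here.

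Cxcl5 was the 1 chemokine called. Its level was 226, 221 and 210 CPM in P-VITRO and 158, 181 and 172 CPM in PTR-VITRO. All 3 PTR-VITRO values lay below the lowest P-VITRO value. The mean fell from 219 ± 7.96 to 170 ± 11.7 CPM (SD, n = 3 each), a fold change of 0.776 with a 95% interval of 0.718 to 0.839. On the log2 scale the change was -0.37 (SE 0.0511, edgeR adjusted p = 0.018). The call was kept under all 7 other settings of scaling, filter, tool or block (adjusted p 1.01e-12 to 0.0232). It was lost, with the direction unchanged, without P-VITRO replicate 1 (edgeR adjusted p = 0.085), P-VITRO replicate 3 (0.0781) or PTR-VITRO replicate 3 (0.0795).

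Cxcl2 moved the same way and lay at the edge of the threshold. It stood at 179, 184 and 172 CPM in P-VITRO and at 153, 157 and 148 CPM in PTR-VITRO, with no overlap. The fold change was 0.858 (95% interval 0.808 to 0.911), or -0.22 on the log2 scale (SE 0.0394, edgeR adjusted p = 0.0515). It passed the threshold under 4 of 7 other settings, in which adjusted p ran from 0.000439 to 0.0671 over all 7, and under none of the 6 fits that left out a library. The coding transcripts of Cxcl2 and Cxcl3 are 91.6% identical over 320 bases, so the split of reads between these genes may be uncertain. The number of shared reads was not counted. Cxcl3 was at 54.8, 61.8 and 49.4 CPM in P-VITRO and at 55.1, 64.3 and 67.3 CPM in PTR-VITRO, and the groups overlapped. Its log2 fold change was 0.16 (SE 0.0864, edgeR adjusted p = 0.526), opposite in sign to that of Cxcl2, and ran from 0.088 to 0.25 with 1 library left out (adjusted p 0.208 to 0.809). With both genes counted as 1, a choice made after seeing the data, the log2 fold change was -0.12 (edgeR adjusted p = 0.313).

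Cxcl1, the most abundant of the 10 genes, was measured at 398, 398 and 372 CPM in P-VITRO and 340, 368 and 353 CPM in PTR-VITRO. The groups did not overlap, but the lowest P-VITRO sample was near the highest PTR-VITRO sample. The log2 fold change was -0.14 (SE 0.0408, edgeR adjusted p = 0.219), and the 95% interval of the fold change was 0.853 to 0.966. The 3 CXCR2 ligands of the list, Cxcl1, Cxcl2 and Cxcl5, summed to 787 ± 27.7 CPM in P-VITRO against 677 ± 27.5 CPM in PTR-VITRO (SD, n = 3 each). Cxcl5 was lower also relative to Cxcl1, with a ratio of their CPM of 0.563 ± 0.00615 for P-VITRO samples and 0.481 ± 0.0149 for PTR-VITRO samples. The ratio of Cxcl2 to Cxcl1 overlapped between the groups (0.458 ± 0.00714 and 0.433 ± 0.0169).

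The monocyte-attracting genes Ccl2 and Ccl7 are neighbours on chromosome 11 (chr11:82035571-82037453 and chr11:82045712-82047525, plus strand), 8.26 kb apart. Ccl2 measured 211, 245 and 177 CPM in P-VITRO and 210, 230 and 239 CPM in PTR-VITRO. P-VITRO replicate 3 was low and replicate 2 was the highest of all 6, so the groups overlapped. The log2 fold change was 0.10 (SE 0.0932, edgeR adjusted p = 0.728), and the interval of the fold change, 0.93 to 1.24, held both small decreases and increases. Ccl7 was at 26.7, 25 and 21 CPM in P-VITRO and at 24.1, 26.3 and 24.4 CPM in PTR-VITRO. These values overlapped too, and again P-VITRO replicate 3 was the lowest. The fold change of Ccl7 was 1.03 (95% interval 0.906 to 1.17, edgeR adjusted p = 0.894). Without P-VITRO replicate 3, both changes turned below 0, to -0.008 for Ccl2 and -0.047 for Ccl7 on the log2 scale. The ratio of Ccl2 to Ccl7 averaged 8.71 ± 0.964 in the control and 9.09 ± 0.625 under the antibody.

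Of the T cell-attracting genes, Cxcl10 (chr5:92346638-92348889, minus strand) lay 1441 kb from Cxcl2 on the same chromosome. Its promoter is shown because interferon factors and NF-κB are both known to act on it (RefSeq, GRCm38.p6, chr5:92348840-92349139, minus strand, same span), with capitals on the matches to the same letters.
Cxcl10: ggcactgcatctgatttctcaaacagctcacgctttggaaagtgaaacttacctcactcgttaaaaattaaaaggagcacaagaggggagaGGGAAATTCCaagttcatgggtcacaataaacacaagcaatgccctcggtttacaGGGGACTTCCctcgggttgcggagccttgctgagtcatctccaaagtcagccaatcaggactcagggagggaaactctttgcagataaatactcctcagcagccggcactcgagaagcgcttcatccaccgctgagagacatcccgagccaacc
The 2 matches began 159 and 104 bases before the start. A short form of the interferon-stimulated response element, GAAA followed after any 2 bases by GAAA, was searched on both strands and found once, as GAAAGTGAAA at 213 bases before the start (lower case above), and in 3.44% of all windows. Of the other windows held for these genes, that of Ccl20 had 1 match to the NF-κB letters, and those of Cxcl12 and Cx3cl1 had 0.

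Cxcl10 was at 15.8, 15.4 and 13.9 CPM in P-VITRO and at 16.4 CPM in each of the 3 PTR-VITRO samples. All PTR-VITRO values lay above the P-VITRO values, by a small margin. The log2 fold change was 0.13 (SE 0.0693, edgeR adjusted p = 0.535), with a 95% interval of the fold change of 0.982 to 1.21. Art3, an antisense gene that overlaps Cxcl10, had at most 0.0428 CPM in any library. Ccl5 (chr11:83525778-83530518, minus strand) was at 12.3, 11.6 and 11.1 CPM in P-VITRO and at 12, 13.7 and 14.6 CPM in PTR-VITRO. One PTR-VITRO sample fell within the P-VITRO range. The fold change was 1.14 (95% interval 0.996 to 1.31, edgeR adjusted p = 0.448).

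**Figure D2:**
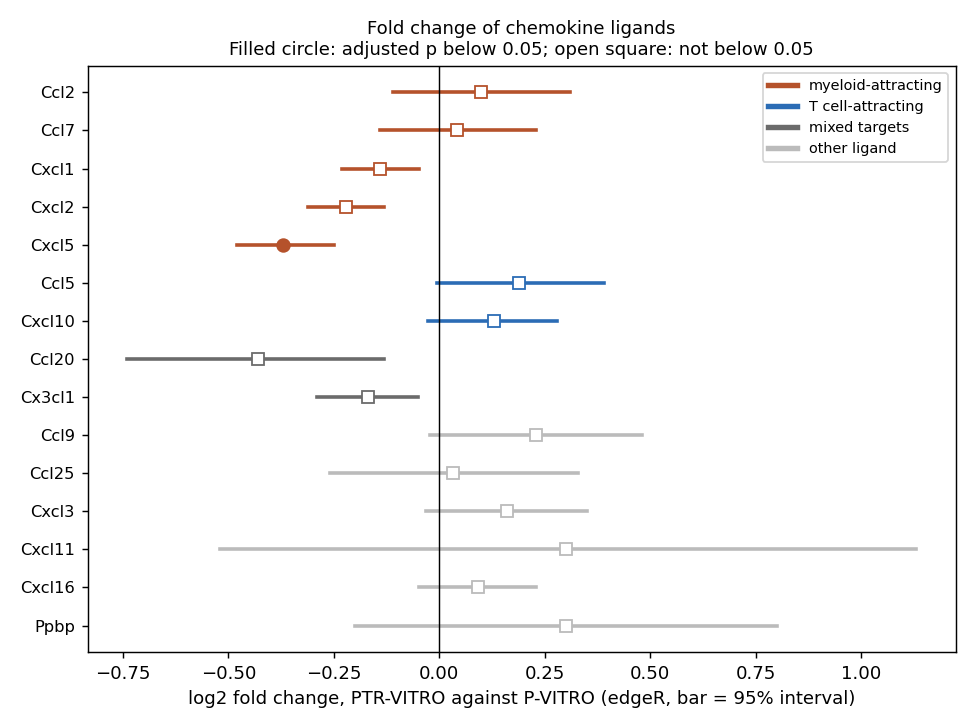
Log2 fold change of PTR-VITRO against P-VITRO (horizontal axis) with 95% intervals from edgeR for the 9 detected chemokines and the 6 other chemokine ligands that could be tested, coloured by group. Cxcl5, at -0.37, is the 1 gene with an adjusted p below 0.05 (filled circle), and the 6 other ligands lie above 0 with intervals that include 0.

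Among the mixed group, Ccl20 (chr1:83116766-83119167, plus strand) had the largest estimated change of the 9 genes and the widest interval. It was at 5.99, 5.21 and 5.42 CPM in P-VITRO and at 4.04, 3.6 and 4.77 CPM in PTR-VITRO. The groups did not overlap, but the gene rested on 85 to 156 counts per library. Its fold change was 0.74 (95% interval 0.599 to 0.914), or -0.43 on the log2 scale (SE 0.138, edgeR adjusted p = 0.256). Cx3cl1, a chemokine made as a membrane protein and released by cleavage (chr8:94772009-94782427, plus strand), was at 57.1, 58.7 and 53.8 CPM in P-VITRO and at 52.8, 50.8 and 46.6 CPM in PTR-VITRO. All PTR-VITRO values were lower. The log2 fold change was -0.17 (SE 0.0546, edgeR adjusted p = 0.257).

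Cxcl12, the ligand that holds leukocytes and stem cells in bone marrow niches (chr6:117168535-117181367, plus strand), had a count of 0 in all 6 libraries. A count of 0 allows up to 3 counts, or 0.168 CPM in the shallowest library and 0.0925 CPM in the deepest, counting error only. No fold change can be given for it.

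Levels of different genes were compared per kilobase of the coding transcript. Across the 6 libraries Cxcl1 was highest at 356 to 418 CPM per kilobase. Ccl2 followed at 218 to 301, Cxcl5 at 100 to 143 and Cxcl2 at 79.7 to 98.8 CPM per kilobase. Ccl7 (26.2 to 33.3) and Ccl5 (20.9 to 27.5) overlapped and could not be ordered. Below them stood Cx3cl1 at 14.1 to 17.7, Cxcl10 at 10.3 to 12.2 and Ccl20 at 2.54 to 4.23 CPM per kilobase. Every other pair of neighbours in this order was apart in all 6 libraries, so the myeloid-attracting genes Cxcl1, Ccl2, Cxcl5 and Cxcl2 stood above both T cell-attracting genes in both groups. The order depends in part on the length used. Per kilobase of all exons of a gene, the P-VITRO means of Cxcl1 (208) and Ccl2 (185) lay closer together, and Cx3cl1 (14.4) stood above Ccl5 (12.2).

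**Figure D3:**
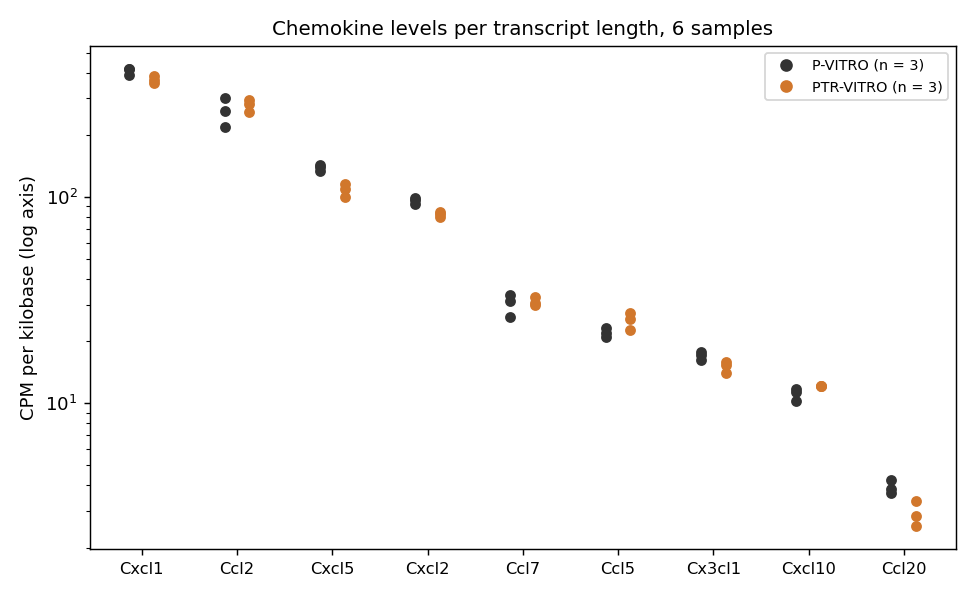
Level of each detected chemokine in CPM per kilobase of coding transcript (vertical log axis), 1 point per sample, P-VITRO in black and PTR-VITRO in orange, ordered by the P-VITRO mean. Cxcl1 is highest, between 356 and 418, and Ccl20 lowest, between 2.54 and 4.23, while Ccl7 and Ccl5 overlap.

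Summed over each group of genes, as a description with no test, the myeloid-attracting genes gave 1040, 1073 and 953 CPM in P-VITRO and 885, 962 and 937 CPM in PTR-VITRO. These sums overlapped. The T cell-attracting genes gave 28.1, 27.1 and 25 CPM in P-VITRO and 28.4, 30.1 and 31.1 CPM in PTR-VITRO, which did not overlap. The mixed genes gave 63.1, 64 and 59.2 CPM in P-VITRO and 56.8, 54.3 and 51.4 CPM in PTR-VITRO, lower and with no overlap. The sum of the T cell-attracting genes, as a percent of that of the myeloid-attracting genes, came to 2.62 ± 0.089 for P-VITRO samples and 3.22 ± 0.0952 for PTR-VITRO samples (SD, n = 3 each). Within the myeloid-attracting group, the sum of the CCR2 ligands Ccl2 and Ccl7 was 235 ± 35.7 and 251 ± 15 CPM and overlapped, unlike that of the CXCR2 ligands. The split by receptor was made after seeing the data.

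Changes with each library left out show which of these values rest on 1 sample. For Cxcl1, Cxcl2, Cxcl5, Ccl20 and Cx3cl1 the log2 fold change stayed below 0 in all 6 such fits, from -0.53 to -0.34 for Ccl20 and from -0.41 to -0.31 for Cxcl5. For Ccl5 (0.14 to 0.27) and Cxcl10 (0.076 to 0.17) it stayed above 0. Ccl2, from -0.008 to 0.22, and Ccl7, from -0.047 to 0.12, had no fixed direction.

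**Figure D4:**
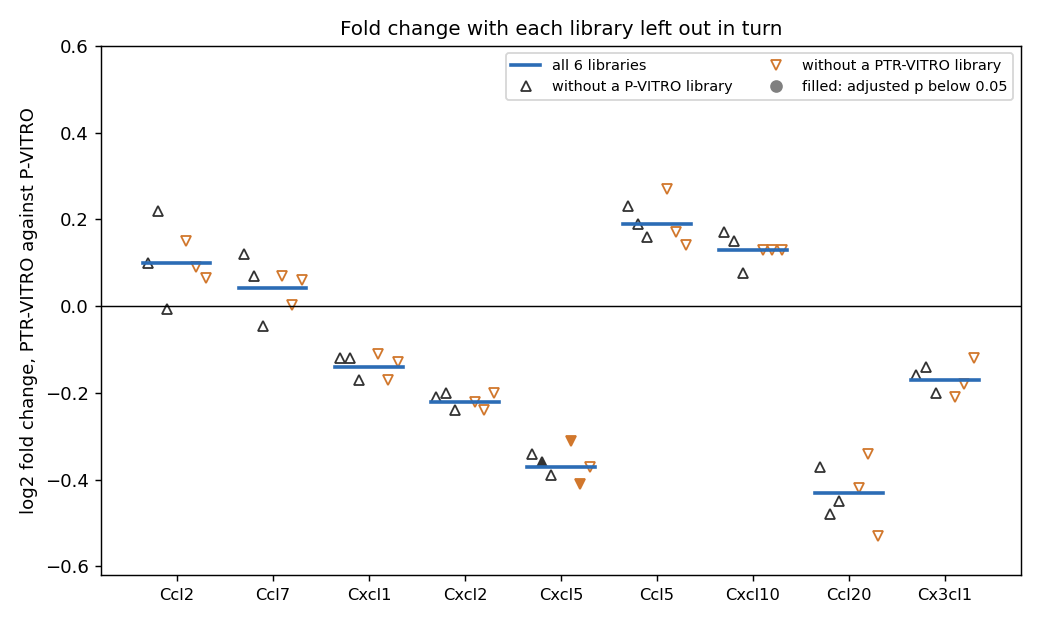
Log2 fold change of PTR-VITRO against P-VITRO (vertical axis) for 9 chemokines with all 6 libraries (blue line) and with each P-VITRO (upward triangles) or PTR-VITRO library (downward triangles) left out, filled where the edgeR adjusted p was below 0.05. Cxcl5 was called in 3 of the 6 fits, and Ccl2 and Ccl7 crossed 0.

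The other chemokine ligands numbered 31, of which 30 were in the table. A count of 0 in every library was found for 16 of them, among them Ccl3, Ccl22 and Cxcl13, and 6 could be tested. None of the 6 was called by edgeR, and none had an unadjusted p below 0.05. DESeq2 and limma-voom also called none of them. All 6 log2 fold changes were above 0, with a median of 0.19. Cxcl16, a membrane-bound ligand of CXCR6, was the most abundant of these by CPM at 147, 167 and 148 in P-VITRO and 151, 168 and 176 in PTR-VITRO, and its log2 fold change was 0.093 (adjusted p = 0.624 by edgeR), or 0.049 to 0.16 with 1 library left out. Ccl9, a mouse myeloid chemokine, was at 5.09 to 5.87 CPM in P-VITRO against 5.95 to 6.94 CPM in PTR-VITRO (log2 fold change 0.23, edgeR adjusted p = 0.488). Ppbp, whose gene lies between Cxcl5 and Cxcl3, was at 1.24 to 1.53 CPM in P-VITRO and 1.31 to 2.04 CPM in PTR-VITRO. These values overlapped (log2 fold change 0.30, edgeR adjusted p = 0.668). Cxcl9, a CXCR3 ligand like Cxcl10, had 0 to 4 counts in a library and was not tested.

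The signalling receptors named here had few or no counts. Cxcr4 had a count of 0 in all libraries, Cxcr2, Ccr2 and Cxcr3 had at most 3 counts, Ccr6 at most 1 and Cx3cr1 at most 10. Among 23 receptors, 3 could be tested. None was called by edgeR, DESeq2 or limma-voom, and 1 had an unadjusted edgeR p below 0.05. That gene was Ackr3, an atypical receptor that takes up Cxcl12 without G protein signalling, at 75.2, 70.4 and 66.6 CPM in P-VITRO and 65.3, 63.4 and 57.4 CPM in PTR-VITRO. Its groups did not overlap, and its log2 fold change was -0.18 (edgeR adjusted p = 0.256, and 0.0381 to 0.284 under the 7 other settings, of which the one without a filter passed). Ccr7, a lymphocyte homing receptor, was at 0.673 to 1.24 CPM over all libraries, and its groups overlapped (log2 fold change -0.34, edgeR adjusted p = 0.669). Ccrl2, a chemerin-binding receptor, was at 0.868 to 1.03 CPM in P-VITRO and 1.26 to 1.31 CPM in PTR-VITRO. All PTR-VITRO values of Ccrl2 were higher (log2 fold change 0.42, edgeR adjusted p = 0.502), opposite in direction to Ackr3.

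Genes that act on chemokines or induce them were examined as 38 genes in 4 lists, of which 34 were tested. Of these, 1 was called, Nfkbiz, and 3 had an unadjusted edgeR p below 0.05, beside 0.246% and 11.4% of all tested genes. The median log2 fold change of the 34 was -0.014. Nfkbiz encodes a nuclear partner of NF-κB that cells need for a subset of inflammatory genes. It was at 68.5, 78.6 and 72.6 CPM in P-VITRO and at 55.3, 55.1 and 57.2 CPM in PTR-VITRO, with no overlap. The log2 fold change was -0.39 (SE 0.0527, edgeR adjusted p = 0.0148). Like Cxcl5, it was called under all 7 other settings (adjusted p 1.25e-10 to 0.0194) and in 3 of the 6 fits without a library. It lost its call without P-VITRO replicate 3 (edgeR adjusted p = 0.0997), PTR-VITRO replicate 2 (0.156) or PTR-VITRO replicate 3 (0.0602). Its log2 fold change ran from -0.43 to -0.34 over the 6 fits.

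None of the other regulators was called. Stat2, a subunit of the interferon-activated complex ISGF3, had the smallest p among them, at 37.4, 33.3 and 34.4 CPM in P-VITRO and 39.7, 41.9 and 40.2 CPM in PTR-VITRO. All 3 PTR-VITRO values were higher, with a log2 fold change of 0.22 (SE 0.0543, adjusted p = 0.17 by edgeR), and of the settings run, the unfiltered one alone called it. The most abundant by CPM were Jun, an AP-1 subunit (log2 fold change 0.068, edgeR adjusted p = 0.502), the hypoxia factor Hif1a (-0.008, adjusted p = 0.963) and Nfkb2, an NF-κB subunit (-0.084, adjusted p = 0.608). Among inducers and their receptors, Il1r1, the receptor for interleukin-1, was at 89.8, 103 and 94.2 CPM in P-VITRO and 86.3, 85.3 and 89.1 CPM in PTR-VITRO. These did not overlap, but the test did not pass (log2 fold change -0.14, edgeR adjusted p = 0.315). The receptors Tnfrsf1a (-0.020, adjusted p = 0.897) and Il17ra (-0.023, adjusted p = 0.876) gave log2 fold changes near 0. Tnf itself was at 46.8 to 50.5 CPM in P-VITRO against 51.1 to 53.3 CPM in PTR-VITRO (log2 fold change 0.096, edgeR adjusted p = 0.448), while Il1b had 0 to 2 counts. For the sheddases of Cx3cl1 and Cxcl16, the log2 fold change was -0.056 for Adam10 (edgeR adjusted p = 0.63) and 0.067 for Adam17 (adjusted p = 0.62), and for Mmp2, a protease that trims Ccl7 and Cxcl12, it was -0.064 (adjusted p = 0.67). Of the mRNA decay list, whose most abundant genes encode proteins that bind AU-rich elements, Zfp36l2 (0.010), Elavl1 (-0.045) and Zfp36l1 (-0.062) gave log2 fold changes with adjusted p of 0.698 to 0.94.

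Genes whose pattern over the 6 samples was most like that of a chemokine were sought for those whose log2 CPM spanned more than 0.5, which were Cxcl5 and Ccl20. Likeness was the root mean square difference of centred log2 CPM. Nearest to Cxcl5 were Akr1c18, a steroid dehydrogenase (difference 0.0367), Tst, a mitochondrial sulfurtransferase (0.0451), and Ptx3, a soluble pattern recognition protein (0.0541). Their log2 fold changes were -0.39 for Akr1c18 (edgeR adjusted p = 0.0148), -0.33 for Tst (adjusted p = 0.25) and -0.36 for Ptx3 (adjusted p = 0.0148). As these genes were picked for this likeness, fold changes near that of Cxcl5 follow from the choice. Nearest to Ccl20 were Gm4950 (0.0685), Ankrd44 (0.0733) and the pseudogene Rpl27-ps3 (0.0845), all at larger differences than those of Cxcl5, and none of these was called. Counting error alone was 10.8% in the smallest library of Ccl20 and 1.81% in that of Cxcl5.

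Markers of fibroblast and endothelial cells were also read, since stromal cells make chemokines. Of the 6 markers, Lum had 0 counts in every library, Pecam1 and Cdh5 were near 0, and Pdgfra, Dcn and Col1a1 were tested with none called. Their summed level was 1126 to 1214 CPM in P-VITRO against 957 to 1078 CPM in PTR-VITRO, almost all of it Col1a1 (log2 fold change -0.18, edgeR adjusted p = 0.155). Dcn gave -0.56 (adjusted p = 0.0919). Pdgfra went the other way, at 0.099 (adjusted p = 0.803), and its groups overlapped. The summed level, set mainly by Col1a1, was lower in PTR-VITRO, the direction also seen for the sum of Cxcl1, Cxcl2 and Cxcl5. Its part in the difference of those chemokines was not tested.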

How the data were processed

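Polyadenylated RNA of 6 EMT6 samples was sequenced from stranded libraries. The deposited values are RSEM expected counts per gene, without scaling across libraries. The authors made them with STAR 2.6.0a and RSEM 1.3.1 on GRCm38 (submitters' processing notes). Reads that fit several genes are shared between them by RSEM, which gives counts that are not whole. Counts were rounded and low genes removed with filterByExpr (minimum count 10, minimum total 15), which left 14217 of 53465 identifiers. Groups were compared with edgeR 4.0.16 (quasi-likelihood test, upper quartile scaling, group as the only term) in R 4.3.3. The p-values were adjusted by Benjamini-Hochberg and read at 0.05. Standard errors came from the F statistic. Intervals and floors on counts cover these libraries only, with 17757341 to 32426739 counts each.

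The chemokines and all gene lists were chosen with earlier results of these data known. Named genes were the 10 chemokines, and from each other list the called genes and the 3 of highest mean CPM. Likeness used tested genes averaging 50 counts or more and a pseudocount of 0.5 CPM. Any other gene was chosen after its values were seen. Transcript pairs of at least 90% identity over 100 bases were found with BLAST+ 2.17.0. Alternatives were TMM, no scaling, DESeq2 1.42.0, limma-voom (limma 3.58.1), no filter, a stricter filter (10 counts in each library), a term for replicate number, another grouping of the mixed genes, and leaving out each library. The fits were tested on simulated data.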

Additional observations from a re-analysis of the deposited data

How the results depend on the processing

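Of 13 named genes under 7 other settings, 86 of 91 comparisons kept their direction and their side of the threshold, and 5 newly passed it. Those were Cxcl2 with DESeq2, without the filter, with 10 counts required in each library and with the replicate block, and Ackr3 with no filter. The number of the 10 chemokines called was 1 in the fit described and 2 (Cxcl2 and Cxcl5) under each of these 4 settings. With no filter, 1 receptor (Ackr3) and 2 genes of the processing, decay, regulator and inducer lists (Nfkbiz and Stat2) were called. Leaving out each library in turn gave 0 to 1 chemokines called and 0 to 1 genes of those lists. Of 78 such comparisons, 70 were unchanged, 6 lost their call and 2 reversed: without P-VITRO replicate 3, the log2 fold change was -0.0075 for Ccl2 and -0.047 for Ccl7, and the 6 such fits ran up to 0.22 for Ccl2 and 0.12 for Ccl7. Over all genes, 35 were called in the fit described, 111 with DESeq2, 400 with no filter, 54 with 10 counts required in each library, 68 with the block and 8 to 64 with a library left out. The cause was not tested.

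The deviations of same-numbered samples correlated weakly, at 0.183, 0.0931 and -0.0427. These values do not settle whether the replicate number pairs the samples. With the replicate block 2 chemokines were called, Cxcl5 with an edgeR adjusted p of 0.0218 and Cxcl2 with 0.0283. The summed ratio of PTR-VITRO to P-VITRO stayed at 0.88 to 0.932 for the myeloid-attracting and at 1.08 to 1.15 for the T cell-attracting genes in every setting run. Depth limits Ccl20, with 85 counts in its smallest library, and Cxcl12, with 0.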
